A study of Mus musculus with 7 samples.

Results

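The nuclear-encoded genes of the mitochondrial respiratory chain were followed in grafted mouse melanomas. They were taken from the count table by symbol: names starting with Ndufa, Ndufb, Ndufc, Ndufs, Ndufv, Uqcr, Atp5, or Cox and a digit from 4 to 8, together with Sdha, Sdhb, Sdhc, Sdhd and Cyc1. Assembly factors named Ndufaf were left out. This gave 86 of the 21878 genes in the table, of which 36 encode subunits of complex I, 4 of complex II, 9 of complex III, 19 of complex IV and 15 of complex V. The other 3 (Cox7a2l, Atp5s and Atp5sl) encode proteins that share a name with subunits but belong to none of the complexes. Ndufa4 and its relative Ndufa4l2 were counted with complex IV, where the Ndufa4 protein resides.

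Messenger RNA was sequenced from 7 tumours that grew from B16F10 cells, a pigmented melanoma line of C57BL/6 origin, in female C57BL/6J mice. In the Zelnorm group (4 libraries, titled MBZ), the mice were dosed orally with 1.25 mg/kg of Zelnorm (tegaserod, a serotonin receptor agonist used in bowel disease) at intervals of 2 days. The NC group (3 libraries) is labelled control, and the labels name no vehicle. Mice were assigned to the groups at random once a tumour could be felt, and the sources used here state neither their age nor the day of sampling. The libraries are named by their columns, and values per library are given in the order MBZ_9, MBZ_11, MBZ_13 and MBZ_15 for Zelnorm and NC_5, NC_6 and NC_10 for NC. Nothing in the labels says that each library came from a separate mouse, so p-values measure the spread between these libraries, which may be technical.

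Library totals lay between 16903598 and 19666598 counts. Transcripts of 8 pigment cell genes summed to 28121 to 30352 CPM (counts per 1000000 counts of the library) in Zelnorm libraries and 25975 to 29381 CPM in NC libraries; B16F10 is a pigmented line. Markers of other cells differed between libraries. The 8 leukocyte markers summed to 232 to 381 CPM in Zelnorm and 168 to 267 CPM in NC, and all 8 had a fold change above 1. The 12 skeletal muscle markers summed to 18.8, 140, 6.87 and 369 CPM in Zelnorm and to 41.9, 6.85 and 6.17 CPM in NC. Adipocyte markers summed to 18.4 to 240 CPM in Zelnorm and 33.9 to 74.0 CPM in NC, and pericyte and smooth muscle markers to 97.1 to 107 CPM in Zelnorm and 72.9 to 118 CPM in NC. The 6 slow and cardiac muscle markers stayed between 0.675 and 1.22 CPM in Zelnorm and between 0.613 and 1.57 CPM in NC, and Ucp1, which defines brown fat, had no count in any library. In whole tumours, fewer cells of a type and less RNA per cell cannot be told apart.

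The respiratory chain passes electrons from NADH, through complex I, or from succinate, through complex II, to ubiquinone, then through complex III and cytochrome c to complex IV, which reduces oxygen. Complexes I, III and IV pump protons across the inner mitochondrial membrane, and complex V, the ATP synthase, lets them return to make ATP. All but complex II combine nuclear-encoded subunits with a few encoded in mitochondrial DNA, which were not analysed here. Tumours differ in how far they draw on this pathway beside glycolysis, and melanoma cells can use both.

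Most respiratory chain genes were slightly lower in Zelnorm tumours than in NC tumours, and no single one passed the threshold of edgeR's quasi-likelihood test after adjustment over all genes. Of the 83 members with enough counts to be tested, 77 had a log2 fold change (Zelnorm over NC) below 0, against 49.8% of all 12997 genes tested. Their median log2 fold change was -0.10, which is 6.68% lower, with quartiles of -0.13 and -0.06, whereas the median of all genes tested was 0.00036. Most members are abundant, and abundant genes as a whole leaned the same way, by less. With a mean above 100 CPM, 56 of 57 members were below 0, against 1422 of all 2310 such genes. The medians there were -0.098 over the members and -0.021 over all genes. Members of complexes I, III and V were below 0 without exception (36 of 36, 9 of 9 and 15 of 15), as were 3 of 4 in complex II and 12 of 16 in complex IV. The median was -0.10 for complex I, -0.07 for complex II, -0.11 for complex III, -0.12 for complex IV and -0.10 for complex V. Counting Ndufa4 and Ndufa4l2 with complex I, as their names have it, left these medians at -0.10 for complex I and -0.12 for complex IV.

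At an adjusted p under 0.05, edgeR called 0 members, and over all genes it called 0 as lower (0%) and 4 as higher (0.0308%). The smallest adjusted p among the members was 0.152, for Cox7c. DESeq2 called 1 member, also Cox7c, as lower (adjusted p = 0.00512), where it called 0.29% of all genes as lower and 1.42% as higher. At an unadjusted edgeR p under 0.05, 10 members were lower, against 3.38% of all genes, and 0 members were higher, against 6.94% of all genes. Each Zelnorm library was below each NC library for 6 of the 83 members tested (background 4.27%) and above it for 0 (background 5.33%). These 6 were Ndufv2, Ndufc2, Uqcrh, Cox6b1, Cox7c and Atp5b. With a mean above 100 CPM, the groups were separated in this direction for 5 of 57 members and 147 of all 2310 genes. In the other direction they were separated for 0 of these members and 69 of these genes. At an unadjusted edgeR p under 0.05, 9 of the 57 members were lower and 0 higher. Of the 2310 genes, 128 were lower and 91 higher.

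**Figure D1:**
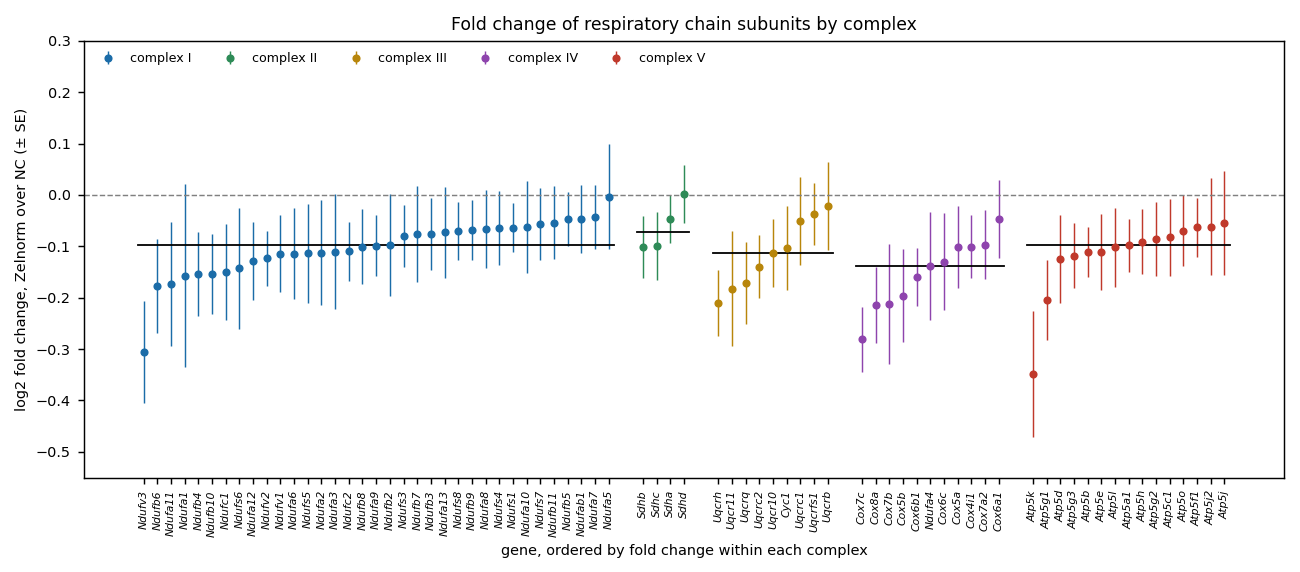
Log2 fold change (Zelnorm over NC) with its SE for the subunits of complexes I to V, without the tissue isoforms of complex IV and the 3 related proteins; 1 subunit of complex I is not shown. Each point is a gene, ordered within its complex, and black lines are the medians of the same subunits with that gene included; all points but Sdhd in complex II lie below 0, and the widely expressed subunits of complex IV have a median of -0.14.

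The summed counts differed by a similar amount. Respiratory chain genes together took 1.75%, 1.80%, 1.77% and 1.68% of all counts in Zelnorm libraries, against 1.91%, 1.79% and 1.92% in NC libraries. The mean share was 1.75% ± 0.0498 (SD, n = 4) in Zelnorm and 1.88% ± 0.0701 (SD, n = 3) in NC, which is 6.63% lower. The groups overlapped, because NC_6 lay at 1.79%, just under MBZ_11. Complex V, the largest part of the total, took 0.720%, 0.725%, 0.699% and 0.676% of counts in Zelnorm and 0.764%, 0.734% and 0.764% in NC. For the share of complex V the groups did not overlap. For the shares of the other complexes NC_6 lay within the range of the Zelnorm libraries. By mean log2 CPM over the tested members, which weights genes equally, complex III was separated too. It lay at 7.59 to 7.67 in Zelnorm and 7.69 to 7.80 in NC, against 7.99 to 8.10 and 8.11 to 8.22 for complex V. The mean share of complex IV was 0.270% ± 0.0151 in Zelnorm and 0.296% ± 0.0208 in NC (SD, n = 4 and 3), or 8.99% lower. For complexes I, II, III and V the mean share was lower by 6.07%, 4.12%, 6.75% and 6.53%. Whether the complexes differed from one another was not tested. The SDs include the spread between libraries as well as counting error.

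**Figure D2:**
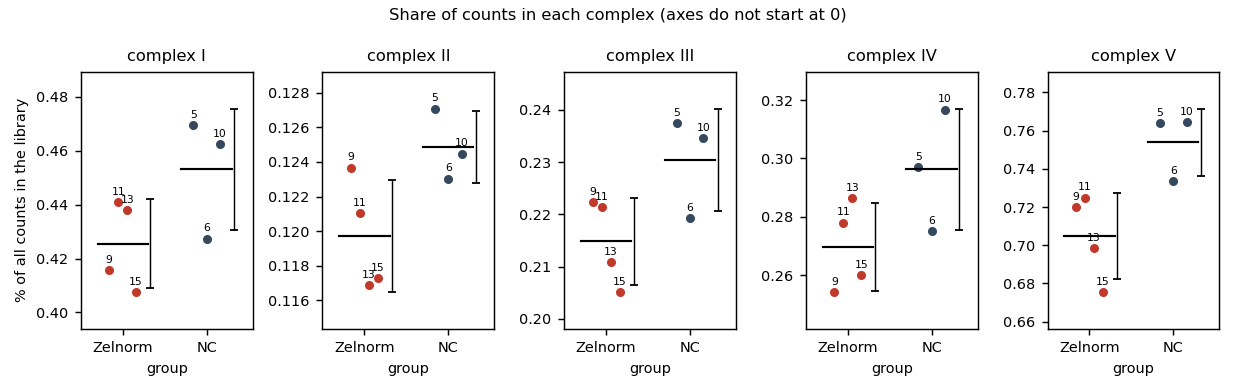
Share of all counts (%) taken by each complex in each library, with the Zelnorm libraries left of the NC libraries in every panel. Points carry the library number, black bars are group means and error bars are the SD (n = 4 and n = 3). By summed share, only in complex V do the Zelnorm points (0.676% to 0.725%) stay below all NC points (0.734% to 0.764%).

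The libraries within each group also differed. Over the 78 tested members without the tissue isoforms of complex IV, the highest library was NC_5 for 33 and NC_10 for 27, and the lowest was MBZ_9 for 30 and MBZ_15 for 26. MBZ_15 lay below the mean of the gene over all libraries for 71 of the 78, with a median deviation of -0.10 on the log2 scale. MBZ_11 and MBZ_13 lay near the middle, with median deviations of 0.0070 and -0.0093. NC_6 resembled them, with a median deviation of -0.0078, against 0.10 in NC_5 and 0.08 in NC_10, and it was the lowest NC library for 53 of 78 members. The Zelnorm mean was below NC_6 for 54 of the 78. This count rests on NC_6 alone. For it and the other counts in this paragraph, the shares over all genes were not computed.

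Leaving out a library moved the counts but not the direction of the median. The number of members below 0 stayed between 73 and 78 of those tested. The number lower at an unadjusted p under 0.05 was 19 without NC_6 (background 4.45%), 16 without MBZ_13 (2.94%), 12 without MBZ_9 (3.61%), 10 without MBZ_11 (2.91%), 6 without MBZ_15 (3.4%), 5 without NC_5 (2.37%) and 5 without NC_10 (2.72%). With fewer libraries, non-overlapping groups become more common for all genes. Their number among members was 30 without NC_6 (background 9.33%), 13 without MBZ_11 (6.24%), 12 without MBZ_9 (6.99%), 10 without MBZ_13 (6.51%), 8 without NC_10 (8.12%), 8 without NC_5 (7.5%) and 6 without MBZ_15 (6.43%), out of 83. Without MBZ_15, NC_5 or NC_10 the non-overlapping counts are near the background.

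**Figure D3:**
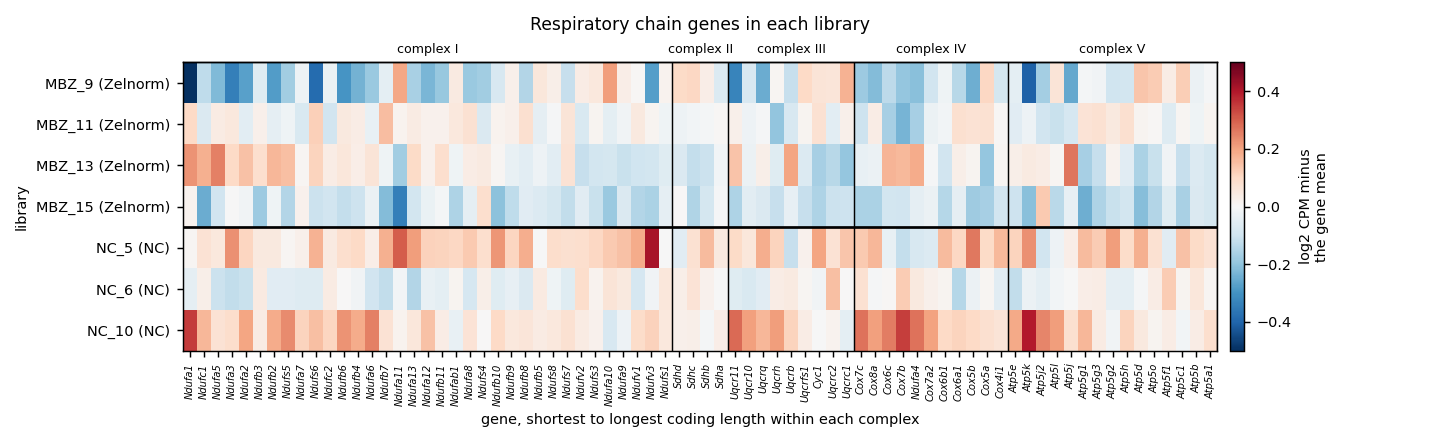
Log2 CPM minus the gene's mean over the 7 libraries (colour; blue lower, red higher) for the tested subunits without tissue isoforms and 1 subunit of complex I, by complex and, within it, from the shortest to the longest coding length. The Zelnorm libraries are the upper 4 rows and the NC libraries the lower 3; MBZ_9 is deepest blue and NC_10 deepest red among the short genes, while NC_6 deviates by at most 0.15 (Uqcrc2).

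Promoters of the member with the smallest p in each complex are shown, because genes of the chain are known to share the transcription factors NRF1, GABPA and YY1. Each sequence runs 5′ to 3′ from 250 bases before to 50 bases after the annotated start (RefSeq, GRCm38.p6), and capitals mark matches on either strand to the NRF1 motif GCATGCGC, the ETS motif of GABPA CCGGAAG or the YY1 motif AAGATGGC. The regions are chr17:31519865-31520164 (+ strand) for Ndufv3, chr4:140961021-140961320 (+ strand) for Sdhb, chr4:116075021-116075320 (- strand) for Uqcrh, chr13:86046746-86047045 (- strand) for Cox7c and chr5:108434350-108434649 (- strand) for Atp5k.
Ndufv3: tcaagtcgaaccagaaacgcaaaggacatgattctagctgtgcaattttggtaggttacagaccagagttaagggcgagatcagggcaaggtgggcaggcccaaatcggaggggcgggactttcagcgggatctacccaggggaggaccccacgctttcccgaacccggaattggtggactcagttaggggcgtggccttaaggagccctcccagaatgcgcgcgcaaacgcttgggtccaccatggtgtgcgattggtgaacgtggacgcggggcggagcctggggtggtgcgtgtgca
Sdhb: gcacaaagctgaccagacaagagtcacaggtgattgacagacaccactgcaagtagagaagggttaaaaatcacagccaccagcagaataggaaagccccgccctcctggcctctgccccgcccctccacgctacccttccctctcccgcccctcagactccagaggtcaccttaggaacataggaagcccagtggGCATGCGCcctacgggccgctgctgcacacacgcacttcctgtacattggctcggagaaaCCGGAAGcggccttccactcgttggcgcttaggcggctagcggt
Uqcrh: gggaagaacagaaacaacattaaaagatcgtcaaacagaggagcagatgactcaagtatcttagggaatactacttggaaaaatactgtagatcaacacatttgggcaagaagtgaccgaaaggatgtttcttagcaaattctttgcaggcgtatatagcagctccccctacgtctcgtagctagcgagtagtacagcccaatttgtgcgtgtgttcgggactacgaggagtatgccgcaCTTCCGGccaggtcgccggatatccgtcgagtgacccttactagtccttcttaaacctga
Cox7c: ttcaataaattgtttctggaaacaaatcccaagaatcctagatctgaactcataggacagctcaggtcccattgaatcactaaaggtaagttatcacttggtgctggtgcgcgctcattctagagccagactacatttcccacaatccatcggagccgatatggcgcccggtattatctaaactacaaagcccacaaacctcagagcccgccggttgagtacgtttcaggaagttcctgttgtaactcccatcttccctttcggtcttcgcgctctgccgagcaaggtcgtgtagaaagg
Atp5k: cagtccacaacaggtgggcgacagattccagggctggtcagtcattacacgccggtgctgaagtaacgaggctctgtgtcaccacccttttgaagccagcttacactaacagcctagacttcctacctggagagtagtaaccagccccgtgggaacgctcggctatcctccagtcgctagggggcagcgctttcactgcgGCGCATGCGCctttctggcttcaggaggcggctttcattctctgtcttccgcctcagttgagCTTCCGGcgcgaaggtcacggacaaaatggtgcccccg
In Atp5k the NRF1 motif is matched on both strands by overlapping letters. Promoters of Ndufv3 and Cox7c hold none of the 3 motifs in this window.

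A promoter was found for 70 of the 86 members. The NRF1 motif was in 14.3% of them, against 2.80% of all 27025 promoters in the table and 5.32% of those of genes tested here. The ETS motif was in 21.4% of member promoters, against 9.12% of all and 17.9% of tested genes, and the YY1 motif in 14.3%, against 2.88% and 4.56%. At least 1 of the 3 motifs was in 30 of the 70, or 42.9%, against 13.8% of all and 25.5% of tested genes. Fold changes were alike with and without a match: the median log2 fold change was -0.10 for the members with any of the motifs and -0.11 for those with none. A match describes the letters in the window and says nothing of binding in these tumours.

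Complex I takes electrons from NADH at its flavin site and hands them along iron-sulfur clusters to ubiquinone. Its 7 nuclear-encoded core subunits, which carry the cofactors, had log2 fold changes between -0.12 and -0.06 with a median of -0.08, and its 29 accessory subunits had a median of -0.10. Ndufv1, the flavin-binding subunit, had 148, 153, 138 and 134 CPM in Zelnorm and 168, 140 and 158 CPM in NC (log2 fold change -0.11 ± 0.07 SE, edgeR adjusted p = 0.651). Ndufs1, the largest iron-sulfur subunit, averaged 270 ± 6.32 CPM in Zelnorm and 282 ± 6.48 CPM in NC (SD, n = 4 and 3). In both of these subunits the groups overlapped.

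The iron-sulfur subunit Ndufv2 was the only core member of complex I past an unadjusted p of 0.05. It had 155, 143, 140 and 146 CPM in Zelnorm and 160, 161 and 156 CPM in NC (log2 fold change -0.12 ± 0.05 SE, edgeR adjusted p = 0.462). MBZ_9 came within 1 CPM of NC_10, so the groups were separated by a narrow gap. Ndufv3, an accessory subunit of the flavoprotein part, had 123, 150, 139 and 133 CPM in Zelnorm and 197, 147 and 161 CPM in NC. Its log2 fold change was -0.31 ± 0.10 (SE), the lowest in complex I, with an edgeR adjusted p of 0.317. MBZ_11 lay above NC_6, and without NC_5, its highest library, the log2 fold change was -0.18. Ndufb10, an accessory subunit of the membrane arm, came next by p in complex I, with 130, 139, 138 and 119 CPM in Zelnorm and 159, 131 and 147 CPM in NC. Its groups overlapped too (log2 fold change -0.15 ± 0.08 SE, edgeR adjusted p = 0.541). At the other end, the accessory subunit Ndufa5 had a log2 fold change of -0.0033 ± 0.10 (SE).

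Complex II is succinate dehydrogenase, an enzyme of the citric acid cycle that feeds the chain without pumping protons. Sdha, the flavoprotein that oxidises succinate, had 323, 341, 336 and 338 CPM in Zelnorm and 351, 339 and 347 CPM in NC (log2 fold change -0.05 ± 0.05 SE). Sdhb, its iron-sulfur partner, had 505, 490, 458 and 464 CPM in Zelnorm and 551, 501 and 489 CPM in NC (log2 fold change -0.10 ± 0.06 SE, edgeR adjusted p = 0.615). Of the membrane anchors, Sdhc averaged 168 ± 13.6 CPM in Zelnorm and 180 ± 3.14 CPM in NC, and Sdhd averaged 214 ± 10.8 CPM in Zelnorm and 214 ± 7.41 CPM in NC (SD, n = 4 and 3). Sdhd was the only subunit outside the tissue isoforms of complex IV with a log2 fold change above 0 (0.0013 ± 0.06 SE). In all 4 genes the groups overlapped.

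Complex III moves electrons from ubiquinol to cytochrome c. Its catalytic nuclear-encoded subunits, the Rieske iron-sulfur protein Uqcrfs1 and cytochrome c1 (Cyc1), had log2 fold changes of -0.04 ± 0.06 and -0.10 ± 0.08 (SE), and the 5 small subunits had a median of -0.17. Uqcrh, the hinge protein at the cytochrome c side whose promoter is printed above, had 141, 122, 134 and 129 CPM in Zelnorm and 151, 144 and 162 CPM in NC. Every Zelnorm library was below every NC library, and the log2 fold change was -0.21 ± 0.06 (SE, edgeR adjusted p = 0.295). The core protein Uqcrc2, which scaffolds the matrix side, had 214, 198, 187 and 191 CPM in Zelnorm and 216, 228 and 208 CPM in NC (log2 fold change -0.14 ± 0.06 SE, edgeR adjusted p = 0.468). Only MBZ_9 reached into the NC range. Uqcrq, a small subunit near the ubiquinone sites, had 235, 277, 284 and 265 CPM in Zelnorm and 315, 268 and 312 CPM in NC (log2 fold change -0.17 ± 0.08 SE, edgeR adjusted p = 0.498). NC_6 lay among the Zelnorm libraries there. Uqcrc1, the other core protein, ran the opposite way in 1 library: it had 579, 522, 449 and 478 CPM in Zelnorm and 565, 514 and 496 CPM in NC, with MBZ_9 highest of all. Its log2 fold change of -0.05 ± 0.09 (SE) changed sign, to at most 0.0052, when MBZ_13 or NC_5 was left out.

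Complex IV, cytochrome c oxidase, passes electrons to oxygen and holds Cox7c, the member with the smallest p. Its 11 widely expressed subunits had a median log2 fold change of -0.14, and 3 of them (Cox7c, Cox8a and Cox6b1) were past an unadjusted p of 0.05. Cox7c, a small single-span subunit, had 119, 126, 132 and 121 CPM in Zelnorm and 148, 143 and 164 CPM in NC. The highest Zelnorm library was 10 CPM or more below the lowest NC library. Its log2 fold change was -0.28 ± 0.06 (SE), or 17.7% lower, with an edgeR adjusted p of 0.152. Cox8a, the small subunit found in most tissues, had 288, 343, 328 and 300 CPM in Zelnorm and 376, 334 and 386 CPM in NC (log2 fold change -0.21 ± 0.07 SE, edgeR adjusted p = 0.352). Here MBZ_11 lay above NC_6. Cox6b1, which faces the intermembrane space near the cytochrome c site, had 202, 203, 192 and 186 CPM in Zelnorm and 229, 207 and 220 CPM in NC, with no overlap (log2 fold change -0.16 ± 0.06 SE, edgeR adjusted p = 0.362). Cox4i1, the widely expressed form of subunit 4 and the most abundant complex IV transcript by CPM, had 474, 507, 507 and 472 CPM in Zelnorm and 564, 485 and 528 CPM in NC (log2 fold change -0.10 ± 0.06 SE, edgeR adjusted p = 0.628). NC_6 again lay within the Zelnorm range.

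The other widely expressed partners of isoform pairs had smaller differences relative to their errors. Cox6a1 had a log2 fold change of -0.05 ± 0.08, Cox7a2 of -0.10 ± 0.07 and Ndufa4 of -0.14 ± 0.10 (SE). Cox7a2l, a relative of Cox7a2 that is no subunit itself, averaged 136 ± 9.25 CPM in Zelnorm and 141 ± 6.36 CPM in NC (SD, n = 4 and 3).

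The tissue isoforms of complex IV had few counts, and 4 of the 5 tested had a log2 fold change above 0. Of 8, 3 could not be tested: Cox7b2 and Cox8c had 0 counts in all 7 libraries, which allows up to 3 counts or 0.152 to 0.178 CPM per library, and Cox6b2 had 5, 8, 2 and 2 counts in Zelnorm and 2, 0 and 7 in NC. These 3 are known from testis. The other 5 had log2 fold changes between -0.27 (Cox7a1) and 0.68, and their smallest edgeR adjusted p was 0.769. Cox6a2, the isoform of heart and skeletal muscle, had 7, 14, 3 and 32 counts in Zelnorm and 7, 5 and 15 in NC (log2 fold change 0.68 ± 0.68 SE). In CPM it was highest in MBZ_15, MBZ_11 and NC_10, and MBZ_15 and MBZ_11 also had the most skeletal muscle transcripts (369 and 140 CPM). NC_10 had the fewest of these transcripts (6.17 CPM), and NC_5, with 41.9 CPM of them, had 0.379 CPM of Cox6a2. With the skeletal muscle level as a covariate the log2 fold change of Cox6a2 was -0.52, with an edgeR adjusted p of 0.864.

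Cox8b, another muscle isoform, had 11, 15, 21 and 10 counts in Zelnorm and 10, 2 and 19 in NC (log2 fold change 0.55 ± 0.57 SE). Cox7a1, the muscle partner of Cox7a2, had 53, 60, 75 and 50 counts in Zelnorm and 82, 53 and 92 in NC (log2 fold change -0.27 ± 0.24 SE). Neither was highest in the muscle-rich library MBZ_15, where both were lowest among the Zelnorm libraries. Cox4i2, an isoform of lung that is induced by low oxygen, had 30, 29, 20 and 34 counts in Zelnorm and 25, 18 and 39 in NC (log2 fold change 0.12 ± 0.32 SE). Ndufa4l2, known as a target of the hypoxia response, had 125, 113, 63 and 175 counts in Zelnorm and 80, 91 and 152 in NC (log2 fold change 0.21 ± 0.29 SE). In all 5 the groups overlapped, and the signs of Cox6a2, Cox8b, Cox4i2 and Ndufa4l2 turned with the leukocyte level as a covariate. That level itself differed between the groups, so this fit cannot fully separate it from the group.

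**Figure D4:**
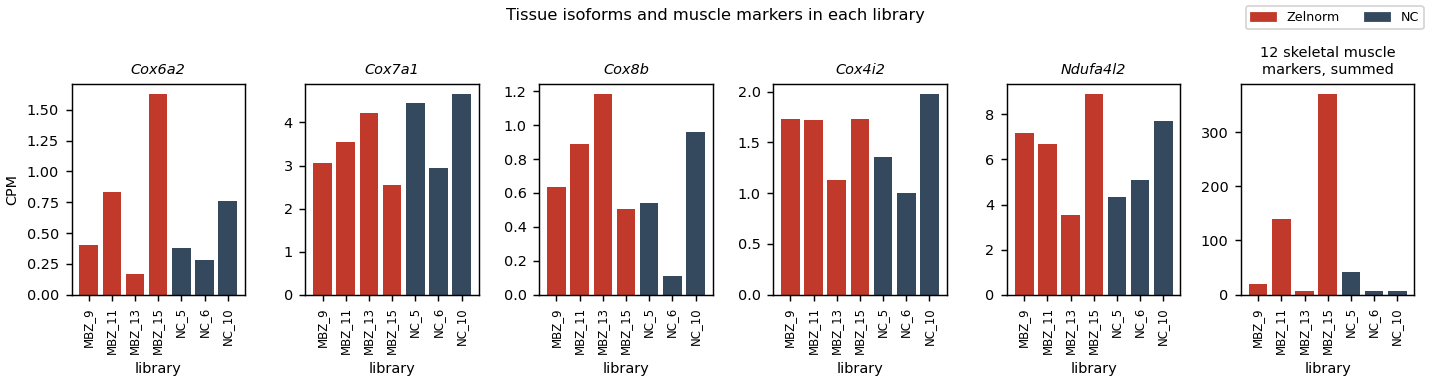
CPM of 5 tissue isoforms in each library, with the summed CPM of 12 skeletal muscle markers at the right; Zelnorm libraries (red) stand left of NC libraries (dark blue). Cox6a2 and the muscle markers are both highest in MBZ_15 (1.63 and 369 CPM), whereas Cox7a1 and Cox8b are not.

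Complex V combines a catalytic F1 head with a rotating c ring, a peripheral stalk and small membrane subunits. The 5 subunits of F1 had a median log2 fold change of -0.11, the 3 genes of the c ring -0.12, the 4 of the peripheral stalk -0.07 and the 3 membrane subunits -0.10. Atp5b, the catalytic beta subunit, was the most abundant transcript of the chain, with 2409, 2426, 2348 and 2337 CPM in Zelnorm and 2628, 2560 and 2525 CPM in NC. The groups did not overlap, and the log2 fold change was -0.11 ± 0.05 (SE, edgeR adjusted p = 0.462), or 7.43% lower. Atp5a1, the alpha subunit, averaged 1398 ± 52.2 CPM in Zelnorm and 1497 ± 40.7 CPM in NC (SD, n = 4 and 3), and MBZ_11 lay just above NC_6 (log2 fold change -0.10 ± 0.05 SE). Per kilobase of annotated transcript, Atp5b reached 1285 CPM, and the median level was 352 CPM per kilobase over complex V and 127 over complex I.

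Atp5k, subunit e of the membrane part, had the lowest fold change of all members. It had 25.1, 32.7, 34.4 and 28.8 CPM in Zelnorm and 39.0, 32.6 and 43.9 CPM in NC (log2 fold change -0.35 ± 0.12 SE, edgeR adjusted p = 0.361), or 21.5% lower. MBZ_11 and MBZ_13 lay above NC_6, and the log2 fold change was -0.17 without both NC_10 and MBZ_9. Atp5g1, which with Atp5g2 and Atp5g3 encodes the same mature c-ring protein, had 190, 201, 171 and 162 CPM in Zelnorm and 214, 196 and 215 CPM in NC (log2 fold change -0.20 ± 0.08 SE, edgeR adjusted p = 0.397). Here too MBZ_11 lay above NC_6. Atp5g2 and Atp5g3 had log2 fold changes of -0.09 ± 0.07 and -0.12 ± 0.06 (SE).

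Coding length moved with the values. The members are short, with a median coding length of 435 bases among the 78, against 1389 bases among 12880 genes tested. Of the 19 shortest, with at most 300 coding bases, 14 were highest in NC_10 and 13 were lowest in MBZ_9. Their mean log2 CPM was 6.745 in MBZ_9 and 7.175 in NC_10. All 261 genes tested of that length, members included, were on average also lowest in MBZ_9 (4.545) and highest in NC_10 (4.741). Across the 78 members, Spearman's correlation coefficient between coding length and the deviation from the gene mean was -0.75 in NC_10 and -0.56 in MBZ_13, and 0.56 in MBZ_9. Across all genes tested it was -0.04, 0.05 and 0.05 in these libraries, over a far wider range of lengths (75 to 100401 bases, against 156 to 2181). In the other libraries, all genes and members had 0.13 and -0.0076 (MBZ_15), -0.13 and 0.15 (NC_5), -0.10 and 0.21 (MBZ_11), and 0.06 and 0.27 (NC_6). Between coding length and the log2 fold change the same coefficient was 0.38 over the members and 0.08 over all genes tested. These are correlations across genes that share the same 7 libraries, so they are given as descriptions.

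Among all genes tested with up to 300 coding bases, the median log2 fold change was -0.06, against -0.14 for the 23 members of that length, tissue isoforms included. For 300 to 600 bases it was -0.03 over all genes and -0.09 over 38 members, for 600 to 1200 bases 0.0014 and -0.07 over 13 members, and beyond 1200 bases 0.0068 and -0.10 over 9 members. With a trend of coding length removed from each library, the median of the members was -0.06 in place of -0.10, 69 of 83 were below 0, and 6 were lower at an unadjusted p under 0.05 (background 3.65%). Without both NC_10 and MBZ_9, the libraries in which short members deviated most, the median was -0.07.

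**Figure D5:**
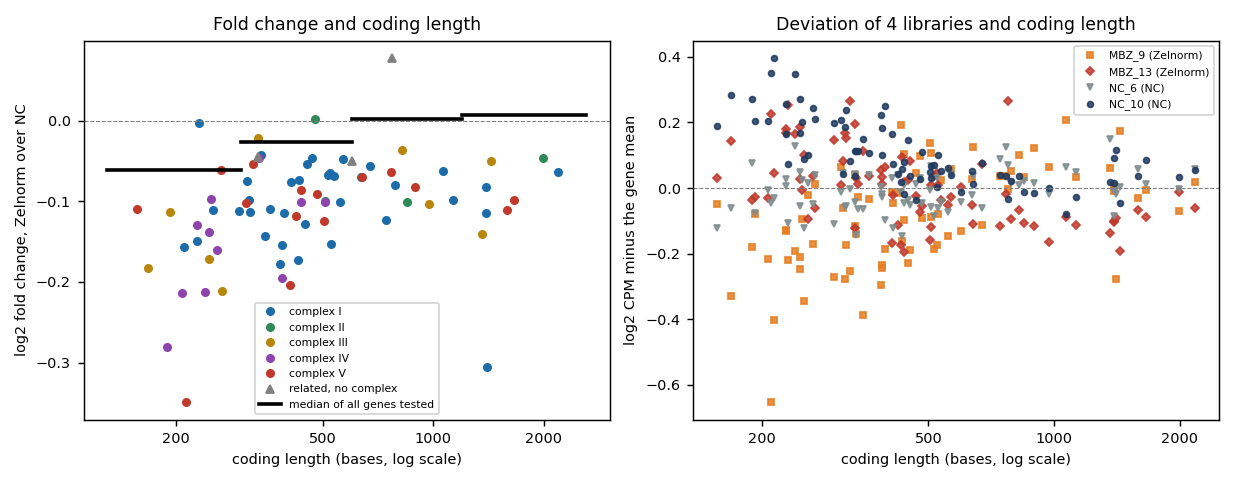
Left, log2 fold change (Zelnorm over NC) of tested members without tissue isoforms against coding length (log scale), with the median of all genes tested in 4 length classes as black lines. Right, log2 CPM minus the gene mean for 4 of the libraries; short members are low in MBZ_9 and high in NC_10, and most points in the left panel lie below the lines.

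Cell makeup was set beside the result. With the leukocyte level as a covariate the median of the members was -0.14, and with the skeletal muscle level it was -0.10. Without the 3 libraries richest in muscle transcripts (MBZ_15, MBZ_11 and NC_5) it was -0.07, with 2 members lower at an unadjusted p under 0.05 (background 1.4%). The leukocyte level, a mean log2 CPM, was 4.47 to 5.18 in Zelnorm libraries and 3.78 to 4.58 in NC libraries. It runs largely with the group, so a fit with this covariate cannot fully separate them. Several small subunits have processed pseudogenes in the mouse genome, and the sources used here do not say how reads shared with them were counted.

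The medians of other mitochondrial gene lists lay between -0.06 and 0.03. Median log2 fold changes of assembly factors were -0.03 for complex I (11 of 15 tested below 0), 0.03 for complex II (2 of 4), -0.02 for complex III (4 of 6) and -0.05 for complex IV (15 of 23). For complex V the list also holds the inhibitor Atpif1, and its median was 0.00068 (2 of 4). None of these genes was past an unadjusted edgeR p of 0.05. Enzymes of the citric acid cycle, counted together with the pyruvate dehydrogenase subunits Pdha1, Pdhb and Dlat, had a median of -0.06, with 15 of 17 below 0. The smallest p there was that of Idh3g, a subunit of NAD-dependent isocitrate dehydrogenase, with 110, 106, 99.9 and 104 CPM in Zelnorm and 126, 118 and 119 CPM in NC (log2 fold change -0.21 ± 0.06 SE, edgeR adjusted p = 0.208). In this gene the groups did not overlap.

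The median was -0.03 for coenzyme Q synthesis (6 of 11 below 0), where Pdss2, an enzyme of its side chain, was at -0.24 ± 0.09 (SE, edgeR adjusted p = 0.394). For protein import it was -0.05 (19 of 23 below 0), and the import subunits Timm8b and Tomm7 had log2 fold changes of -0.17 ± 0.08 and -0.28 ± 0.13 (SE). Regulators of mitochondrial gene expression had a median of -0.06 (8 of 13 below 0), among them Polg, the mitochondrial DNA polymerase, at -0.10 ± 0.05, and Ppargc1b, a coactivator of respiratory genes, at 0.20 ± 0.11 (SE). Genes of mitochondrial fission and fusion had a median of -0.02 (6 of 10 below 0). In all of these lists no gene passed an adjusted p of 0.05 in edgeR, and past an unadjusted p of 0.05 stood only Idh3g and Pdss2.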

How the data were processed

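The values used are raw counts per gene, deposited as 1 table without normalization, and the sum of a column is its depth. The submitters' processing notes list HTSeq, HISAT2, Trimmomatic, Cufflinks and DESeq with the builds GRCm38 and GRCh38. How these tools were set, and whether strand was used, is not given in the sources used here. Per the labels' protocols, RNA came from a TRIzol extraction and libraries were stranded mRNA libraries.

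Genes kept by filterByExpr (12997) were scaled by TMM (factors 0.986 to 1.01) and compared with edgeR 4.0.16 (quasi-likelihood test, Benjamini-Hochberg adjustment over all genes, threshold 0.05) in R 4.3.3. CPM use TMM-adjusted library sizes, and log2 CPM a prior count of 2. The common biological coefficient of variation was 0.111, and SEs come from the F statistic. Library pairs differed by 6.53 to 20.9 chi-square per degree of freedom, so none was a copy. Counts of 3 served as the floor, for counting error only.

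Alternatives were RLE and upper quartile scaling, other filters, DESeq2 1.42.0, voom (limma 3.58.1), a robust fit, muscle and leukocyte covariates, and fewer libraries. The coding length trend (GENCODE M21 lengths in place of the planned protein table), DESeq2 on edgeR's genes and the fit without NC_10 and MBZ_9 were chosen after seeing the data. Named per complex were the 3 members with the smallest p and the most abundant one, then isoform pairs, catalytic subunits, the 3 smallest p above 0 and up to 3 per other list; Ndufc2, Sdhd, Ndufa5, Atp5g2 and Atp5g3 were named after their values were seen. For complex I, 1 gene this rule names is not reported here. The members and lists were chosen with earlier results of these data known. Scripts were tested on simulated data. Figures used matplotlib 3.10.9 in Python 3.11.15.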

Additional observations from a re-analysis of the deposited data

Results flagged for a closer look

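In 43 groups of values tested for a library far from the others, 1 stood out, where chance gives about 5% of groups. Cox4i2, the oxygen-responsive isoform of complex IV subunit 4, had 1.13 CPM in MBZ_13, against 1.72 to 1.73 CPM in the other 3 Zelnorm libraries. Its counts were 20 in MBZ_13 and 29 to 34 in the other Zelnorm libraries, against 25, 18 and 39 in NC, so MBZ_13 lay within the NC range.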

How the results depend on the processing

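All 5 complexes kept a median log2 fold change below 0 under all 20 alternatives, from -0.15 to -0.06 for complex I, -0.10 to -0.04 for II, -0.22 to -0.07 for III, -0.23 to -0.04 for IV and -0.18 to -0.07 for V; the low ends of III (-0.22) and V (-0.18) came with the leukocyte covariate. Between 67 and 78 members were below 0, and 0 were higher at an unadjusted p under 0.05. DESeq2 called 1 member in either run. The number lower at an unadjusted p under 0.05 was 6 with the muscle covariate (3.75% of all genes), 6 with the length trend (3.65%), 2 without the 3 muscle-rich libraries (1.4%), and 5 to 19 leaving out each library. Non-overlapping members numbered 15 of 83 without the muscle-rich libraries (15.4% of all genes, so near the background), 16 without NC_10 and MBZ_9 (13.1%), and 6 to 30 leaving out each library. Over all genes, edgeR's 4 calls became 34 with no filter, 21 in the robust fit, 139 without NC_10 and MBZ_9, 0 with the leukocyte covariate, 0 without the muscle-rich libraries and 0 to 161 leaving out each library, and DESeq2 made 206, or 216 on the same genes. Signs turned, with no adjusted p under 0.05, for Uqcrc1 (0.020 without the muscle-rich libraries, -0.12 to 0.0052 leaving out each library), Cox6a2 (-0.52 with the muscle and -0.22 with the leukocyte covariate), Cox8b (-0.019, leukocyte), Ndufa4l2 (-0.044, muscle; -0.39, leukocyte; -0.26 without the muscle-rich libraries), Cox4i2 (-0.0091, -0.53 and -0.074 in that order, and -0.089 to 0.41 leaving out each library), Cox6a1 (0.013 with the length trend, 0.030 without NC_10 and MBZ_9), Cox7a2l (0.015, length trend) and Ndufa4 (0.0090 without NC_10 and MBZ_9). The causes were not tested, and the leukocyte level used as a covariate itself differed between the groups. With 4 and 3 libraries and a median SE of 0.08 per member, a difference of 0.10 in a single gene is close to its error. No paired analysis was possible because the columns are numbered differently from the replicates in the titles.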
